A study of Mus musculus with 12 samples.

Results

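The genes described here encode the subunits of voltage-gated sodium channels, voltage-gated calcium channels, the sodium leak channel NALCN and the hyperpolarization-activated HCN channels. They were taken from the count table by symbol: every Scn gene with a number and the letter a or b, every Cacna, Cacnb and Cacng gene, every Hcn gene with a number, and Nalcn. The rule found 40 of 14909 genes and used no measured value. By role they were 7 sodium channel alpha subunits, 4 sodium channel beta subunits, Nalcn, 9 calcium channel alpha-1 subunits, 4 calcium channel beta subunits, 4 alpha-2-delta subunits, 7 gamma subunits and transmembrane AMPA receptor regulatory proteins (TARPs), and 4 HCN channels. Bulk RNA sequencing compared frontal cortex from 7 wild-type mice (WT 1 to 7) with frontal cortex from 5 mice lacking Upf3b (KO 1 to 4 and KO 6), all of the C57BL/6 strain and given no treatment that the labels name. The labels number the mice but give no age, sex, substrain or design of the null allele. The p-values set the difference between the groups against the spread between these libraries. The question was which genes differ in level when Upf3b is absent.

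Voltage-gated sodium and calcium channels each consist of a large pore-forming subunit, with 4 linked repeats around the pore, and smaller auxiliary subunits that set how much channel reaches the membrane and how it gates. In neurons sodium channels carry the rising phase of the action potential, calcium channels couple it to transmitter release and to calcium signalling, and HCN channels carry a mixed cation current that opens on hyperpolarization. UPF3B is a factor of nonsense-mediated mRNA decay (NMD), which degrades transcripts whose stop codon lies well upstream of the last exon junction.

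Upf3b itself was counted 157 to 219 times in the WT libraries and 11 to 24 times in the KO libraries. In CPM, which are counts scaled to the TMM-adjusted library total, the WT libraries averaged 38.3 ± 2.48 (SD, n = 7) and the KO libraries 2.76 ± 0.877 (SD, n = 5). The log2 fold change was -3.78 ± 0.13 (SE; edgeR quasi-likelihood adjusted p = 7.21e-11), and an exact two-sided permutation test gave p = 0.00253. Library totals ran from 4684039 to 5425774 counts in WT and from 4990643 to 6617759 in KO, with 4 of the 5 KO libraries deeper than every WT library and KO 1 the exception. KO 2 and WT 4 stood apart from their groups. Summed CPM of 4 olfactory bulb markers was 87.3 in KO 2 and 95.2 in WT 4, against 12.6 to 14.6 in the other WT libraries. The sum was 56.9 in KO 4 and 16.2 to 20.6 in the remaining KO libraries. Of these markers 2, Tbx21 and Eomes, were at 0 in at least 1 library. The sum of 6 striatal markers was highest in WT 4 (1182 CPM, other WT libraries 468 to 969) and in KO 2 (983 CPM, other KO libraries 541 to 711), and the sum of 4 thalamic markers was 196 CPM in KO 2 against 78.7 to 107 in the other 11 libraries. Genes called in either direction are therefore also described without both libraries. That comparison keeps KO 4, and without offsets it called 1 of the 2 olfactory bulb markers tested, Cdhr1, higher in KO. Of 8 markers of all neurons, 6 were lower in KO and 0 higher, and their sum ran from 2858 to 3179 CPM in WT and from 2483 to 3000 CPM in KO. Their median log2 fold change was -0.226 without and 0.007 with offsets that remove a trend with count per exonic base. With these count-density offsets 0 of the 8 were called in either direction. Of all tested genes, 14.4% were called lower and 15.3% higher without offsets, and 7.82% and 8.34% with them. Of 6 microglial markers, 4 were lower without offsets and 3 (P2ry12, Cx3cr1 and Fcrls) with count-density offsets, and their sum ran from 417 to 527 CPM in WT and from 379 to 402 in KO. Of 4 markers of oligodendrocyte precursors, 3 were higher without and 2 (Cspg4 and Gpr17) with these offsets, and their sum ran from 204 to 264 CPM in WT and from 278 to 335 in KO. Markers of excitatory cortical neurons were present in every library (sum over 6 genes 1477 to 1846 CPM in WT and 1226 to 1764 in KO). Without offsets 3 of these 6 were lower in KO and 0 higher, with a median log2 fold change of -0.210. Lower calls without offsets also came in 2 of 6 inhibitory neuron, 2 of 6 astrocyte and 3 of 6 oligodendrocyte markers. Of 4 endothelial markers, 2 were higher. With count-density offsets 0 of the markers in these lists were called. The part of these shifts in the channel results was not tested. In bulk tissue, fewer cells of a type and less RNA per cell cannot be told apart.

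Annotated NMD transcripts of the channel genes are shown first, because NMD is the process in which Upf3b acts. GENCODE M21, on the mm10 build, annotates 10 such transcripts in 7 of the 40 genes (17.5%, against 26.5% of all tested genes): Cacna1b, Cacna1d, Cacna1h, Cacna1i, Cacna2d3, Scn1a and Scn2a1, the last listed there as Scn2a. The 5 windows below are the last 27 coding bases up to and including the premature stop codon, in capitals, 5′ to 3′. They were chosen because Cacna1b and Cacna1d were called higher in KO. Cacna2d3-206 and Scn2a-207 were added because their stops lie in exons outside all protein-coding exons. The stop of another Cacna2d3 transcript, Cacna2d3-204, lies in an exon that a protein-coding transcript also uses.
Cacna1b-207: ccagctgcgtgcgcctggttcgcaTGA
Cacna1d-208: ccctctgggtgtcggcggtgggggTAA
Cacna1d-210: aaagtcattgctttcaagcccaagTGA
Cacna2d3-206: agagacctgatgggcaacctgtatTAG
Scn2a-207: gatatggaagaaagcaaggaggggTGA
The Cacna1b stop lies at chr2:24622692-24622694 on the minus strand, in exon 4 of 9, with 578 nt between it and the last exon junction. A protein-coding transcript also uses this exon. The Cacna1d stops lie at chr14:30129785-30129787 and chr14:30082485-30082487 on the minus strand, 5694 and 140 nt upstream of the last junction, in exons that overlap a coding exon but have other ends. The Cacna2d3-206 stop lies at chr14:29217491-29217493 on the minus strand, in an exon of 172 bases. The Scn2a-207 stop lies at chr2:65718941-65718943 on the plus strand, in exon 2 of 4, an exon of 93 bases. Counts were deposited per gene, so the level of these transcripts was not measured apart from that of the gene's other transcripts. Of the 7 genes with such a transcript 2 were called higher and 0 lower by edgeR without offsets, where 15.3% and 14.4% of all tested genes were. Cacna1b was the 1 gene of the 7 called higher with count-density offsets, where 8.34% of all genes were, and also with offsets for density and length. Of the other 33 genes 4 were called higher and 6 lower without offsets.

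All 40 channel genes had enough counts to be tested, and 12 of them passed an adjusted p under 0.05 in edgeR's quasi-likelihood test. Cacna1b, Cacna1c, Cacna1d, Cacna1g, Cacna2d4 and Hcn3 were higher in KO, and the genes lower in KO included Cacna2d1, Cacnb4, Cacng7, Hcn2 and Scn2b. Over all tested genes 15.3% were called higher and 14.4% lower, so 6 of 40 in each direction is close to the background. The changes were small, with log2 fold changes of these named genes between -0.27 and 0.46, and the median over the 40 genes was 0.085 against 0.034 over all tested genes. In 3 genes, Hcn3, Cacna1b and Cacna1g, every KO library lay above every WT library, as did 5.84% of all tested genes. In 0 channel genes did every KO library lie below every WT library, against 4.80% of all tested genes.

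**Figure D1:**
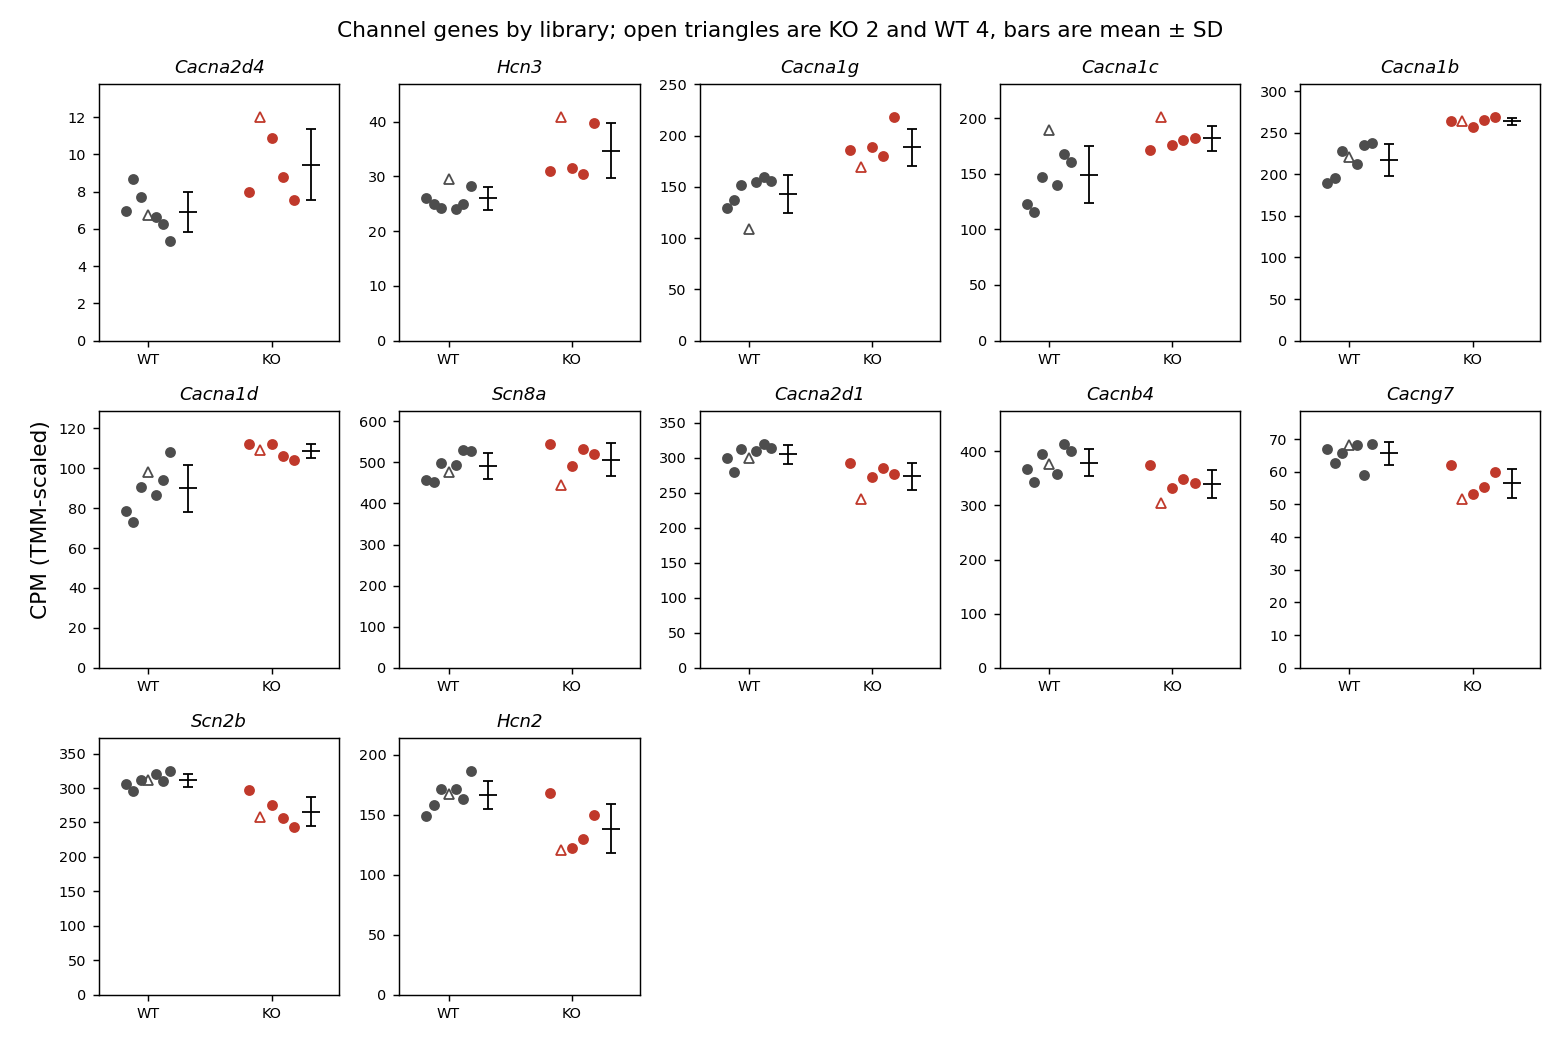
CPM of 12 channel genes that passed in the fit without offsets or with count-density offsets, 1 point per library, with WT in grey, KO in red, and the mean ± SD (7 WT, 5 KO) beside the points; each vertical axis starts at 0. Hcn3, Cacna1g and Cacna1b show no overlap between the groups, and in Cacna2d1, Cacnb4, Cacng7, Scn2b and Hcn2, lower in KO, the highest KO point is KO 1, the leftmost.

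Some of these calls changed in fits that adjusted for how densely a gene was counted. Over all tested genes with an exonic length, the log2 fold change fell as the mean count per exonic base rose (Spearman's rho -0.531 across 14228 genes), and across the 40 channel genes rho was -0.720. These are correlations across genes of the same 12 libraries and are given as a description. Whether the trend came from counting or from genotype was not tested, and offsets that remove it could remove either. The median log2 fold change was 0.248 in the tenth of genes with the lowest count per base and -0.182 in the tenth with the highest. The channel genes are long, with exonic lengths from 1380 to 14921 bases and a median of 6248 (all tested genes 3160), and 15 of the 40 lay among the fifth of genes with the highest count per base. A fit with an offset per gene and library that removed the trend with count density called 4 channel genes higher (Hcn3, Cacna1b, Cacna1g and Scn8a) and 1 lower (Cacng7). Over all genes this fit called 8.34% higher and 7.82% lower. With offsets for count density and exonic length together, 3 were higher (Hcn3, Cacna1b and Cacna1g) and 3 lower (Cacna2d1, Cacnb4 and Cacng7), with 7.80% and 8.24% of all genes called. Hcn3, Cacna1b, Cacna1g and Cacng7 were thus called in the same direction in all 3 fits.

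Library depth moved with genotype, and with the log2 library total as a further term edgeR called 0 channel genes in either direction, 4 of them higher and 0 lower at an unadjusted p under 0.05. Over all genes that fit called 0.588% higher and 0.0771% lower. Without KO 2 and WT 4, 39 channel genes could be tested, of which 8 were higher and 6 lower, against 15.2% and 15.4% of all genes. Hcn4, Cacna1h and Scn3a joined the genes called higher and Cacna2d4 left them, while Cacng3 joined and Cacnb4 left those called lower. Leaving out WT 4 alone gave 13 higher and 8 lower, against 17.0% and 17.3% of all genes. In each of the 6 genes called lower, KO 1, the shallowest KO library, was the highest of the KO libraries, as it was in 74.4% of all genes called lower and 24.4% of all tested genes. The part that depth plays in these calls was not tested beyond these fits.

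**Figure D2:**
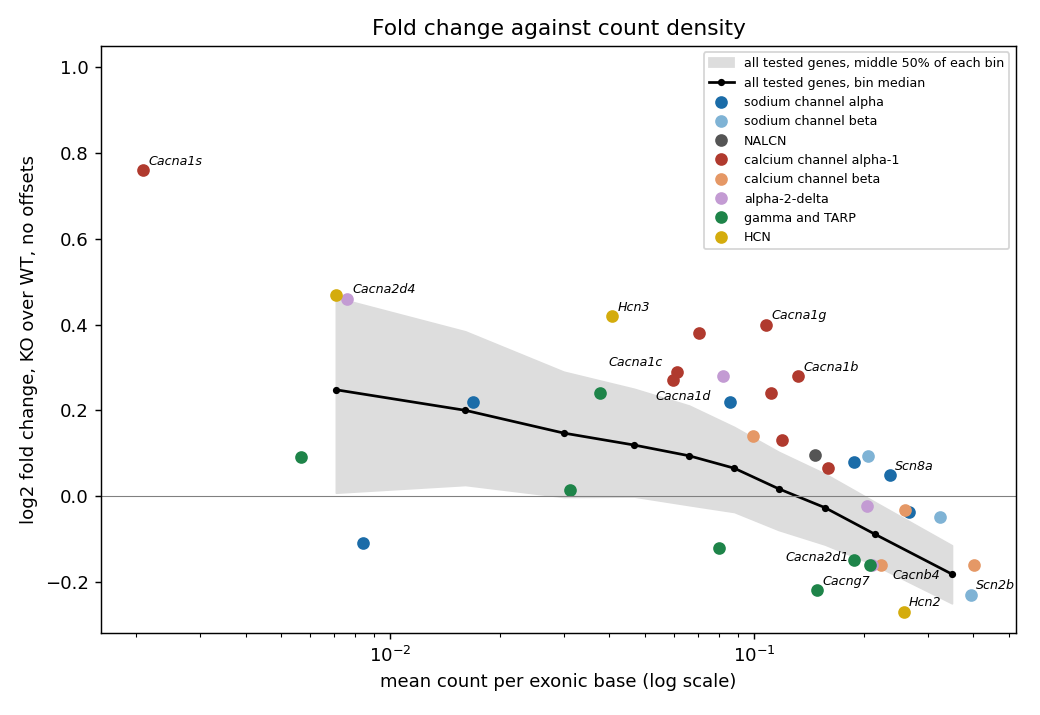
Log2 fold change (KO over WT, fit without offsets) against mean count per exonic base (log scale) for 37 channel genes, 1 point per gene coloured by role, with the median (line) and the middle 50% (grey) of all tested genes in 10 bins of equal size. The line falls from 0.248 to -0.182. Genes above the grey band include Cacna1g, Cacna1b, Hcn3, Cacna1c, Cacna1d, Cacna1e and Cacna1h, and genes below it include Cacng7, Hcn2, Cacng2 and Scn7a.

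Per kilobase of exon, auxiliary subunits were among the most abundant of these transcripts. In WT, Cacnb3 stood at 78.7 ± 4.03 CPM per kb (SD, n = 7) and Scn2b at 78.6 ± 2.42. The most abundant pore-forming subunits of the sodium and calcium channels were Scn2a1 (50 ± 3.67 CPM per kb), Scn8a (43.1 ± 2.73) and Scn1a (33.9 ± 3.73), the 3 main sodium channels of the adult brain, and among the calcium channels Cacna1a (29.1 ± 2.67), the P/Q-type channel of presynaptic terminals. Hcn2, whose product also forms a pore, stood at 52.1 ± 3.59 CPM per kb. The 5 lowest levels included those of genes known from other tissues: Cacna1s of skeletal muscle (0.286 ± 0.177) and Cacna2d4 of the retina (1.19 ± 0.183).

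**Figure D3:**
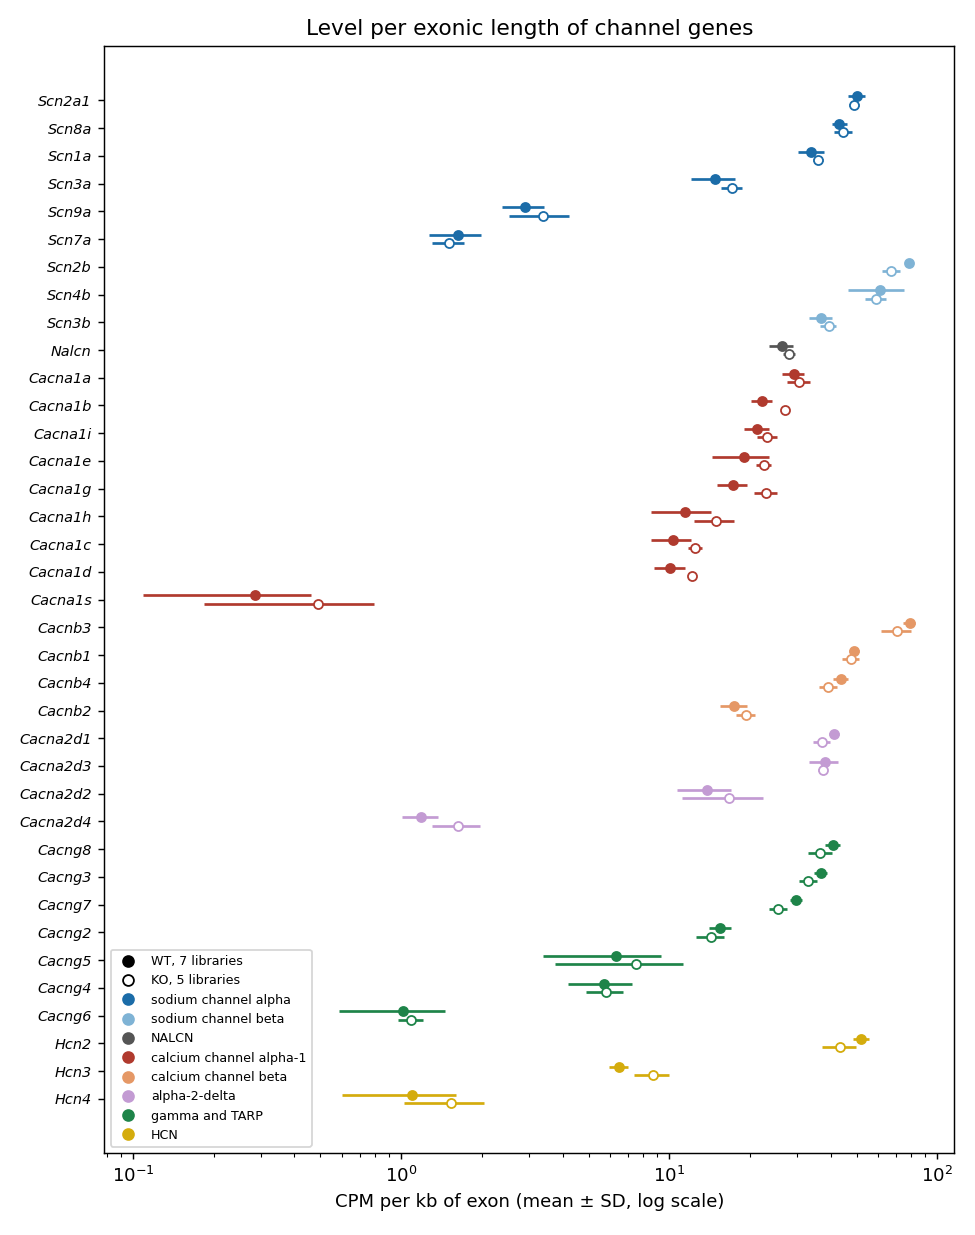
Level of 37 channel genes in CPM per kb of exon (log scale), mean ± SD over 7 WT (filled) and 5 KO (open) libraries, grouped and coloured by role. Cacnb3 (78.7) and Scn2b (78.6) are the highest shown in WT, and Cacna1s the lowest at 0.286.

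Of the 7 sodium channel alpha subunits, 0 passed in edgeR without offsets, 0 had an unadjusted p under 0.05 there, and DESeq2 and limma-voom also called 0. Their median log2 fold change was 0.079, and it was positive in all 26 fits made, which reuse the same libraries. Scn8a, which encodes the channel concentrated at the axon initial segment and the nodes of Ranvier (chromosome 15, 100869858 to 101045938, plus strand), passed with count-density offsets and not without offsets. Its WT libraries ran from 452 CPM (lowest) through 493 (median) to 531 (highest), and KO 1, 2, 3, 4 and 6 stood at 544, 446, 492, 532 and 521 CPM. The groups overlapped, with KO 2 below every WT library, KO 3 and KO 6 inside the WT range, and KO 1 and KO 4 just above it. The log2 fold change of Scn8a was 0.048 ± 0.057 (SE; edgeR adjusted p = 0.557) without offsets, 0.15 ± 0.047 (adjusted p = 0.0459) with count-density offsets, and 0.024 ± 0.05 (adjusted p = 0.788) once length was included. Offsets from cyclic loess, which fits each library's trend with gene level and takes no exonic length, gave 0.17 ± 0.03 (adjusted p = 0.00261). Without KO 2 and WT 4 and without offsets it was 0.071 ± 0.054 (adjusted p = 0.338).

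Scn2a1, the channel of the immature axon initial segment, and Scn1a, which is prominent in fast-spiking interneurons, did not pass in any of these 3 fits. Scn2a1 stood at 435 ± 31.9 CPM in the WT libraries (SD, n = 7) and at 424 ± 17.6 in the KO libraries (SD, n = 5), with an edgeR adjusted p of 0.627. Scn1a had 285 ± 31.3 and 301 ± 12.8 CPM, with an adjusted p of 0.391. Scn3a, which is highest in the developing brain, had 126 ± 23.1 and 147 ± 13.4 CPM and a log2 fold change of 0.22 ± 0.11 (adjusted p = 0.136). It was called higher without KO 2 and WT 4 (0.22 ± 0.08, adjusted p = 0.0432). Scn3a, Scn2a1, Scn1a, Scn9a and Scn7a are neighbours on chromosome 2, between 65457118 and 66784914 of mm10, and their log2 fold changes without offsets were 0.22, -0.038, 0.079, 0.22 and -0.11.

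The sodium channel beta subunits are single-pass proteins that modulate sodium channel gating and act as cell adhesion molecules, and Scn2b fell in the fit without offsets. Scn2b (chromosome 9, 45117782 to 45130070, plus strand) had WT values from 295 through 311 to 324 CPM, and KO 1, 2, 3, 4 and 6 at 297, 258, 275, 256 and 243. Only KO 1 reached the WT range. Its log2 fold change was -0.23 ± 0.047 (SE; edgeR adjusted p = 0.00282), with calls in 12 of 12 fits that left out 1 library, and -0.034 ± 0.039 (adjusted p = 0.59) with count-density offsets. Scn2b was counted at up to 0.47 reads per exonic base, and its fall was lost in the 2 fits with offsets for count density, alone or with length. It was called with cyclic loess offsets (-0.14 ± 0.04, adjusted p = 0.0102) and without KO 2 and WT 4 (-0.23 ± 0.053, adjusted p = 0.00415). Scn3b and Scn4b had adjusted p-values of 0.281 and 0.809. The median over the 4 beta subunits was -0.138 without offsets and 0.034 with count-density offsets.

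Nalcn encodes the pore of the sodium leak channel, which sets resting excitability. Its WT libraries ran from 164 CPM through 189 to 223, and KO 1, 2, 3, 4 and 6 stood at 196, 209, 197, 210 and 187, all inside the WT range. On the log2 scale the difference was 0.095 ± 0.064 (SE; edgeR adjusted p = 0.281), and it was -0.01 ± 0.11 (adjusted p = 0.981) with the library total as a term.

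The calcium channel alpha-1 subunits form the pore and give each channel type its name. All 9 had a positive log2 fold change in each of the 26 fits made, which reuse the same libraries. Of all tested genes, 8017 of 14274 were positive without offsets and 7205 of 14228 with count-density offsets. With offsets for density and length 6984 of 14228 were. The share of all genes positive in every fit is not given here. The median over the 9 was 0.280 without offsets, 0.219 with count-density offsets and 0.105 with offsets for density and length. In edgeR without offsets 4 of the 9 rose (Cacna1b, Cacna1c, Cacna1d and Cacna1g), against 15.3% of all tested genes. With count-density offsets, and with offsets for density and length, 2 did (Cacna1b and Cacna1g), against 8.34% and 7.80%. With the library total as a term 0 did, against 0.588%, though 4 had an unadjusted p under 0.05. The difference between this role and the others was not tested. These genes include some of the longest in the set, and across the 40 genes the log2 fold change rose with exonic length (Spearman's rho 0.454 without offsets, 0.236 with offsets for density and length; 0.293 and 0.00156 across 14228 genes).

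Cacna1b encodes the N-type channel, which triggers transmitter release at many terminals (chromosome 2, 24603887 to 24763152, minus strand). Its WT libraries ran from 190 CPM through 221 to 238, and KO 1, 2, 3, 4 and 6 stood close together at 264, 264, 257, 266 and 269. All KO libraries lay above all WT libraries. The means were 217 ± 19.0 CPM for WT (SD, n = 7) and 264 ± 4.56 CPM for KO (SD, n = 5). edgeR gave a log2 fold change of 0.28 ± 0.054 (SE; edgeR adjusted p = 0.00206) without offsets and 0.28 ± 0.053 (adjusted p = 0.00335) with count-density offsets. It was 0.19 ± 0.032 (adjusted p = 0.00156) with offsets for density and length, and 0.27 ± 0.058 (adjusted p = 0.0025) without KO 2 and WT 4.

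Cacna1g, a T-type channel that opens near rest and supports burst firing (chromosome 11, 94408391 to 94474198, minus strand), had WT values from 109 CPM (WT 4) through 152 to 160. KO 1, 2, 3, 4 and 6 stood at 186, 169, 189, 180 and 218 CPM, so the groups did not overlap. The fitted log2 fold change was 0.40 ± 0.086 (SE; edgeR adjusted p = 0.00322), 0.37 ± 0.086 (adjusted p = 0.0108) with count-density offsets and 0.30 ± 0.093 (adjusted p = 0.0422) with length included. Without KO 2 and WT 4 it was 0.37 ± 0.062 (adjusted p = 0.000592), and with the library total as a term 0.58 ± 0.15 (adjusted p = 0.103). The other T-type genes were Cacna1h, at 0.38 ± 0.15 (adjusted p = 0.058), and Cacna1i, at 0.13 ± 0.073 (adjusted p = 0.207). Cacna1h was at 159 CPM in KO 2 and 140 CPM in WT 4, the highest of each group, and without these libraries it was called higher at 0.39 ± 0.079 (adjusted p = 0.00198).

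The L-type genes Cacna1c and Cacna1d, whose channels link membrane activity to gene expression and pacemaking, rose in the fit without offsets and with cyclic loess offsets (0.34 ± 0.09 and 0.28 ± 0.07, edgeR adjusted p = 0.0162 and 0.00805), and not with offsets for count density alone or with length. Cacna1d (chromosome 14, 30039939 to 30491455, minus strand) had WT values from 73.2 through 90.8 to 108 CPM, and KO 1, 2, 3, 4 and 6 at 112, 109, 112, 106 and 104 CPM. Of these, KO 4 and KO 6 lay inside the WT range, at its upper end. The log2 fold change was 0.27 ± 0.074 (SE; edgeR adjusted p = 0.0128), with calls in 12 of 12 fits that left out 1 library, and 0.17 ± 0.071 (adjusted p = 0.111) with count-density offsets. Without KO 2 and WT 4 it was 0.28 ± 0.074 (adjusted p = 0.00843). The exons of Cacna1d overlap those of Chdh on the opposite strand, and how strand was treated in counting is not given in the sources used here.

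Cacna1c (chromosome 6, 118587240 to 119196418, minus strand) had WT values from 116 through 147 to 189 CPM, the highest in WT 4, and KO 1, 2, 3, 4 and 6 at 171, 201, 176, 180 and 182. Only WT 4 reached the KO range. It had a log2 fold change of 0.29 ± 0.097 (SE; edgeR adjusted p = 0.036) with all libraries and 0.30 ± 0.076 (adjusted p = 0.00662) without KO 2 and WT 4. The call was lost without any 1 of KO 2, KO 3, KO 4, KO 6, WT 1, WT 2, WT 3 and WT 5 (adjusted p at most 0.0823), and with count-density offsets (0.19 ± 0.089, adjusted p = 0.158). Cacna1a, the P/Q-type gene, had 231 ± 21.1 CPM in WT and 242 ± 23.0 in KO (edgeR adjusted p = 0.503), and Cacna1e, the R-type gene, had 283 ± 68.5 and 335 ± 20.9 (adjusted p = 0.191).

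**Figure D4:**
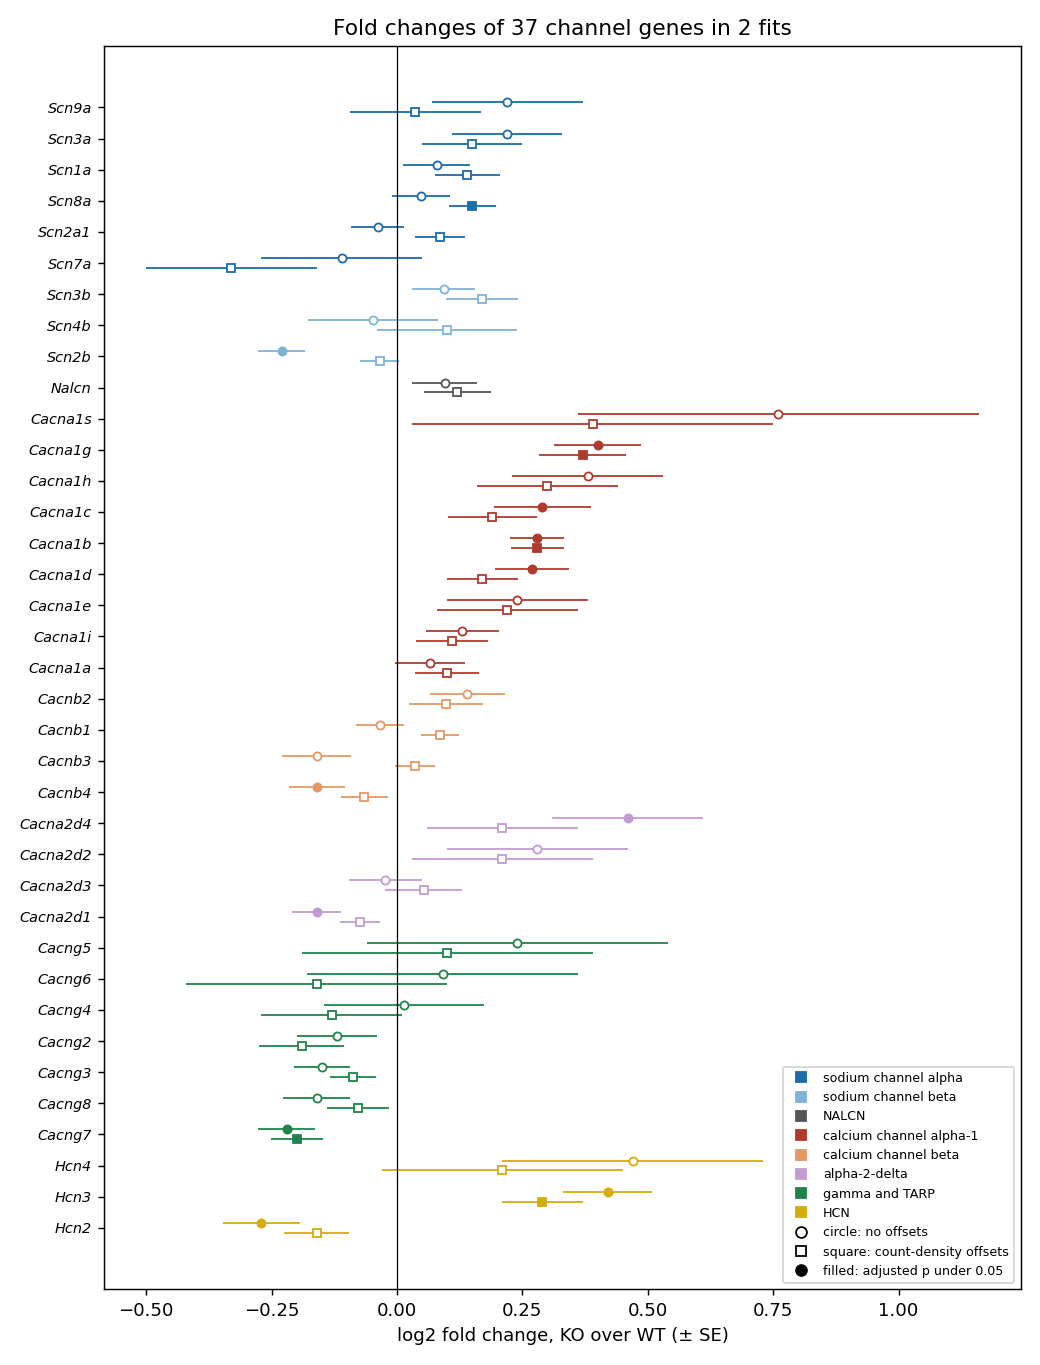
Log2 fold change (KO over WT) ± SE of 37 channel genes, grouped and coloured by role, without offsets (circles) and with count-density offsets (squares); filled symbols have an edgeR adjusted p under 0.05. All 9 alpha-1 genes lie to the right of 0 in both fits, while Scn2b moves from -0.23 to -0.034.

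The calcium channel beta subunits are cytoplasmic proteins that bring alpha-1 subunits to the membrane. Cacnb4 (chromosome 2, 52428320 to 52676831, minus strand) had WT values from 344 through 377 to 413 CPM, and KO 1, 2, 3, 4 and 6 at 375, 304, 333, 348 and 341. The groups overlapped, with KO 1 near the WT median and KO 2, KO 3 and KO 6 below all WT libraries. On the log2 scale the difference was -0.16 ± 0.056 (SE; edgeR adjusted p = 0.0463), -0.065 ± 0.047 (adjusted p = 0.374) with count-density offsets and -0.16 ± 0.036 (adjusted p = 0.00938) with length included. The call was lost without any 1 of KO 2, KO 3, KO 4, KO 6, WT 1, WT 3, WT 6 and WT 7 (adjusted p at most 0.12), and without both KO 2 and WT 4 (-0.13 ± 0.055, adjusted p = 0.0772). Cyclic loess offsets gave -0.057 ± 0.03 (adjusted p = 0.191). Cacnb1, Cacnb2 and Cacnb3 did not pass, at -0.033, 0.14 and -0.16 (adjusted p = 0.638, 0.176 and 0.0968). The median over the 4 genes was -0.095 without offsets and 0.061 with count-density offsets.

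The alpha-2-delta subunits are extracellular, membrane-anchored proteins that raise calcium channel density, and Cacna2d1 is a target of the gabapentinoid drugs. Cacna2d1 (chromosome 5, 15934691 to 16374511, plus strand) had WT values from 279 through 310 to 319 CPM, and KO 1, 2, 3, 4 and 6 at 292, 241, 273, 285 and 276. KO 2, KO 3 and KO 6 lay below all WT libraries. It fell by 0.16 ± 0.049 on the log2 scale (SE; edgeR adjusted p = 0.0268) without offsets and by 0.15 ± 0.036 (adjusted p = 0.0124) with offsets for density and length. With count-density offsets alone the value was -0.074 ± 0.04 (adjusted p = 0.224), and with cyclic loess offsets -0.071 ± 0.03 (adjusted p = 0.0987). The call was lost without any 1 of KO 2, KO 3, WT 3 and WT 6 (adjusted p at most 0.0656), while without both KO 2 and WT 4 the value was -0.13 ± 0.045 (adjusted p = 0.0355).

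Cacna2d4 (chromosome 6, 119236526 to 119352407, plus strand) was counted only 25 to 46 times per WT library and 39 to 77 times per KO library. Its WT values ran from 5.35 through 6.72 to 8.68 CPM, and KO 1, 2, 3, 4 and 6 stood at 7.98, 12, 10.9, 8.77 and 7.57. KO 2, KO 3 and KO 4 lay above all WT libraries. edgeR gave a log2 fold change of 0.46 ± 0.15 (SE; edgeR adjusted p = 0.0322), 0.34 ± 0.16 (adjusted p = 0.116) without KO 2 and WT 4, and 0.21 ± 0.15 (adjusted p = 0.351) with count-density offsets. The call was lost without any 1 of KO 2, KO 3, WT 1, WT 5, WT 6 and WT 7 (adjusted p at most 0.0931). Cacna2d2 and Cacna2d3, the other genes of this role, had log2 fold changes of 0.28 ± 0.18 and -0.023 ± 0.072 (adjusted p = 0.257 and 0.836). Cacna2d2 was at 154 CPM in KO 2 and at 75.9 to 88.9 CPM in the other KO libraries.

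Most Cacng genes encode TARPs, which carry AMPA receptors to synapses and slow their gating. The median log2 fold change of the 7 Cacng genes was -0.118 without offsets and lay between -0.153 and -0.062 in all 26 fits. Without offsets 1 of the 7, Cacng7, was called lower, which is close to the 14.4% of all tested genes. Cacng7 (chromosome 7, 3332955 to 3368221, plus strand) had WT values from 58.9 through 67.1 to 68.4 CPM, and KO 1, 2, 3, 4 and 6 at 62.0, 51.8, 53.1, 55.4 and 59.8. KO 1 and KO 6 lay inside the WT range, above its lowest library, WT 6, and the other 3 below it. The fitted log2 fold change was -0.22 ± 0.056 (SE; edgeR adjusted p = 0.0084), -0.20 ± 0.052 (adjusted p = 0.0193) with count-density offsets and -0.18 ± 0.053 (adjusted p = 0.0352) with length included. Leaving out KO 2 and WT 4 gave -0.20 ± 0.059 (adjusted p = 0.0175), and with count-density offsets as well -0.16 ± 0.055 (adjusted p = 0.055). The call was also lost with the library total as a term (-0.10 ± 0.088, adjusted p = 0.655). With the mouse number as a block it was -0.20 ± 0.065 (adjusted p = 0.0711).

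Cacng8, the neighbour of Cacng7 and Cacng6 on chromosome 7, Cacng3 and Cacng2 (stargazin) had log2 fold changes of -0.16 ± 0.067, -0.15 ± 0.056 and -0.12 ± 0.08 (edgeR adjusted p = 0.0856, 0.0519 and 0.282). Cacng3 was at 89.8 CPM in WT 4 and at 101 to 108 CPM in the other WT libraries. It was called lower without WT 4 (-0.20 ± 0.051, adjusted p = 0.00884) and without both KO 2 and WT 4 (-0.15 ± 0.04, adjusted p = 0.0119). Cacng5 was at 54.3 CPM in KO 2 and 48.3 CPM in WT 4, against 15.3 to 26.6 CPM in the other 10 libraries. Cacng6, the gene of a gamma subunit that is not a TARP, had 5 to 17 counts per library.

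Of the HCN genes, Hcn3 rose and Hcn2 fell in the fit without offsets. Hcn3 (chromosome 3, 89146074 to 89160196, minus strand) had WT values from 24.0 through 25 to 29.5 CPM, the highest in WT 4, and KO 1, 2, 3, 4 and 6 at 30.9, 40.8, 31.6, 30.5 and 39.7. All KO libraries lay above all WT libraries, KO 2 and KO 6 well above the other 3. The log2 fold change was 0.42 ± 0.089 (SE; edgeR adjusted p = 0.00334), 0.29 ± 0.08 (adjusted p = 0.0256) with count-density offsets and 0.28 ± 0.078 (adjusted p = 0.0258) with length included. It was 0.37 ± 0.085 (adjusted p = 0.00362) without KO 2 and WT 4, and 0.29 ± 0.15 (adjusted p = 0.45) with the library total as a term. The exons of Hcn3 overlap those of Pklr on the opposite strand, so its counts are uncertain, as are those of 11 other channel genes that overlap another gene's exons.

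Hcn2 (chromosome 10, 79716634 to 79736108, plus strand), which encodes a widely expressed HCN channel of the brain, had WT values from 149 through 167 to 186 CPM, and KO 1, 2, 3, 4 and 6 at 168, 121, 122, 130 and 150. KO 1 lay at the WT median, KO 6 at the lower end of WT, and the other 3 below it. Hcn2 fell by 0.27 ± 0.077 on the log2 scale (SE; edgeR adjusted p = 0.0156), with calls in 12 of 12 fits that left out 1 library. With count-density offsets the value was -0.16 ± 0.065 (adjusted p = 0.114), and with the library total as a term -0.01 ± 0.099 (adjusted p = 0.977). Without KO 2 and WT 4 it was -0.24 ± 0.075 (adjusted p = 0.0219). Hcn4, known from the cardiac pacemaker and the thalamus, was at 14.8 CPM in KO 2 and 13.1 CPM in WT 4, against 4.09 to 8.62 CPM in the other libraries. Hcn4 was called higher without both (0.48 ± 0.17, adjusted p = 0.0372) but not with all libraries (0.47 ± 0.26, adjusted p = 0.195).

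KO 2 and WT 4 stood at the top of their groups in many channel genes. KO 2 was the highest KO library in 15 of 40 genes (37.5%, against 28.8% of all tested genes), and WT 4 the highest WT library in 19 (47.5%, against 23.4%). Both were highest in 14 genes (35.0%, against 12.4%), among them Hcn3, Hcn4, Cacna2d2, Cacna1c, Cacna1e, Cacna1h, Cacna1s, Cacnb2, Cacng4, Cacng5, Scn3a, Scn9a and Scn3b. These are also the libraries with the highest sums of olfactory bulb and striatal markers, and the part of neighbouring tissue in these values was not tested. The rises of Hcn3, Cacna1b and Cacna1g were called without these libraries both with and without count-density offsets (largest adjusted p 0.0488, for Hcn3 with offsets).

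**Figure D5:**
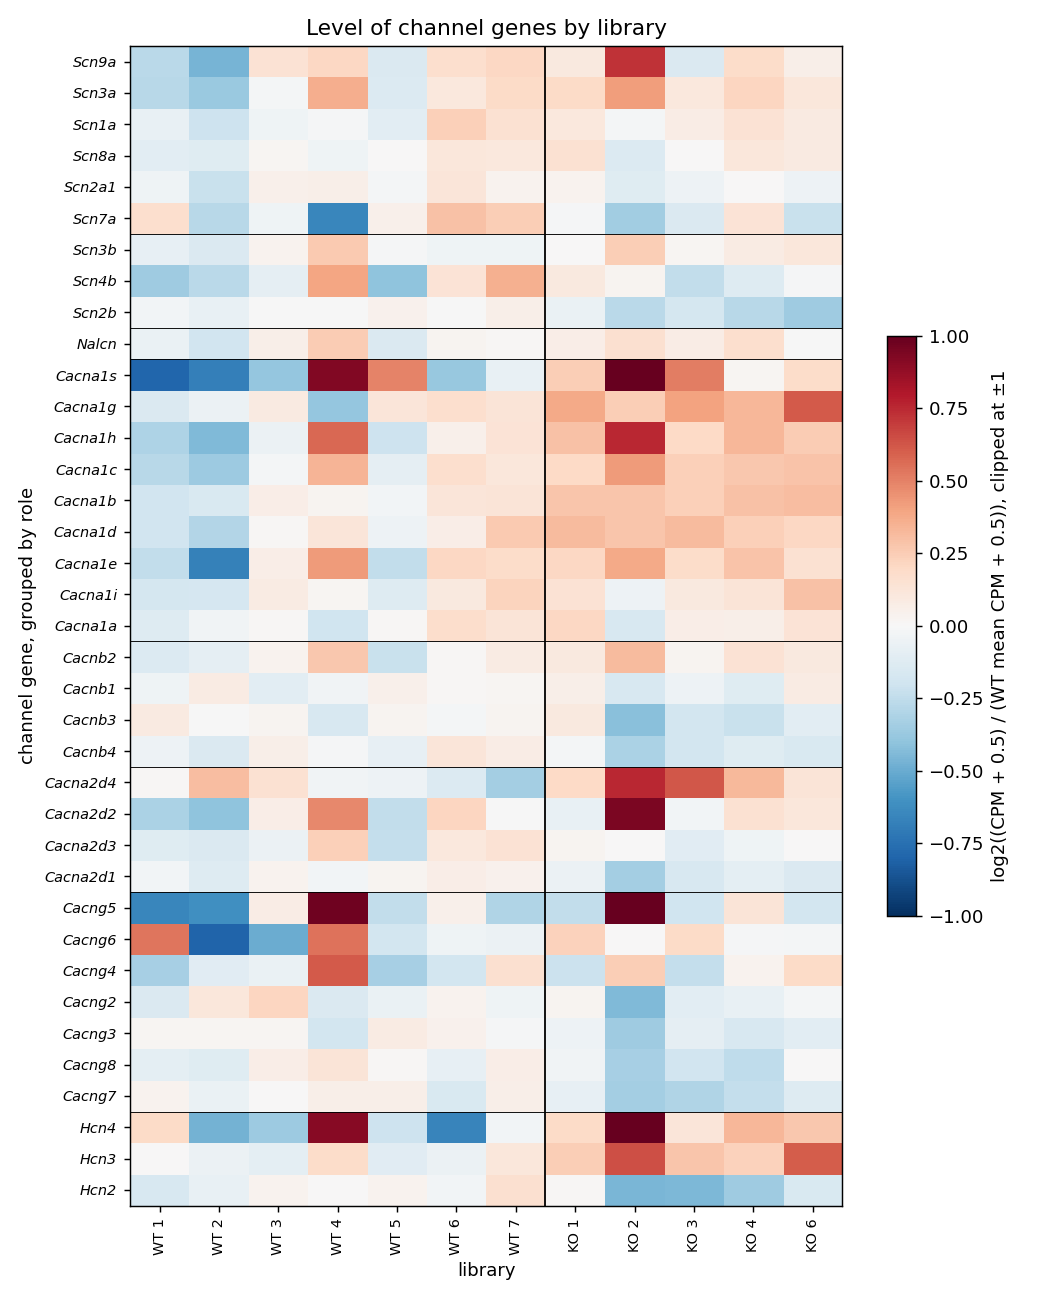
Level of 37 channel genes (rows, grouped by role) in the 7 WT and 5 KO libraries (columns), as the log2 ratio of CPM + 0.5 to the WT mean + 0.5, clipped at ±1; red is higher and blue lower. WT 4 and KO 2 share the strongest reds, as in Cacng5 and Hcn4, while Cacna1b, Cacna1d and Cacna1g are red in every KO library.

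Genes for proteins that bind these channels were described beside them. The table holds 35 such genes, of which 34 were tested, and 2 were called higher and 8 lower without offsets, against the 15.3% and 14.4% of all genes. Their median log2 fold change was 0.008. Count-density offsets gave 4 higher (Unc80, Rims2, Rimbp2 and Kctd3) and 2 lower (Fgf12 and Calm2).

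Among the sodium channel partners 3 of 10 were called lower without offsets, against 14.4% of all tested genes. With count-density offsets 1 was, Fgf12, against 7.82%. Fgf12, an intracellular fibroblast growth factor homologue that binds the sodium channel tail, stood at 256 ± 5.72 CPM in WT and 214 ± 13.9 CPM in KO, a fall of 0.26 ± 0.04 on the log2 scale (SE; edgeR adjusted p = 0.000778). With count-density offsets the value was -0.18 ± 0.03 (adjusted p = 0.0014). Its relative Fgf13 and the adhesion protein gene Cntn1 fell by 0.22 ± 0.06 and 0.11 ± 0.04 (adjusted p = 0.0148 and 0.0354) without offsets, and neither passed with count-density offsets. Fgf13 passed with cyclic loess offsets (-0.18 ± 0.05, adjusted p = 0.0182) and without KO 2 and WT 4 (-0.19 ± 0.05, adjusted p = 0.00577). The call of Cntn1 was lost in 9 of 12 fits that left out 1 library (adjusted p at most 0.0904) and without KO 2 and WT 4 (-0.11 ± 0.04, adjusted p = 0.0695). Fgf12 stood at -0.25 ± 0.04 without them (adjusted p = 0.000601). The other 7, among them Ank3, which encodes the initial segment scaffold ankyrin-G, did not pass.

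Of the 3 NALCN partners tested, Unc80, the scaffold of the leak channel, rose from 437 ± 50.9 to 503 ± 20.8 CPM. Its log2 fold change was 0.20 ± 0.07 (SE; edgeR adjusted p = 0.045) without offsets and 0.26 ± 0.07 (adjusted p = 0.0256) with count-density offsets. The call without offsets was lost in 9 of 12 fits that left out 1 library (adjusted p at most 0.0983), with DESeq2 size factors in edgeR (0.18 ± 0.07, adjusted p = 0.0625) and without a filter on low counts (adjusted p = 0.0585). It was 0.21 ± 0.08 without KO 2 and WT 4 (adjusted p = 0.0462). Fam155b was not found in the count table under this symbol and was not analysed here. Calmodulin, the calcium sensor bound by calcium and sodium channels alike, is encoded by genes that include Calm2 and Calm3, which fell by 0.39 ± 0.06 and 0.29 ± 0.06 (adjusted p = 0.000662 and 0.00409) without offsets. With count-density offsets their values were -0.099 ± 0.03 and -0.022 ± 0.02, of which Calm2 passed (adjusted p = 0.0232). They were at -0.40 ± 0.06 and -0.30 ± 0.06 without KO 2 and WT 4 (adjusted p = 0.000286 and 0.00214). Cabp1 (-0.34 ± 0.12, adjusted p = 0.0449) and Gem (0.52 ± 0.17, adjusted p = 0.0282), named after their values were seen, also passed without offsets and not with count-density offsets, and both passed without KO 2 and WT 4 (adjusted p = 0.0235 and 0.0298). Cnih2, an AMPA receptor partner that acts beside the TARPs, fell by 0.26 ± 0.06 (adjusted p = 0.00553) without offsets and stood at -0.041 ± 0.03 (adjusted p = 0.418) with count-density offsets. Its value was -0.24 ± 0.06 without KO 2 and WT 4 (adjusted p = 0.00577). The HCN partners Pex5l and Kctd3 did not pass without offsets (adjusted p = 0.216 and 0.366).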

How the data were processed

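The deposited values are raw counts of reads, 1 whole number for each RefSeq gene in each library, with no scaling and no pooling by the authors. Per the submitters' processing notes, STAR and mm10 were used. The version, the counter, its strand setting and any handling of duplicates were not given in the sources used here. Groups came from the sample titles. The main test was edgeR's (4.0.16, R 4.3.3) quasi-likelihood test of genotype over all 12 libraries (TMM, filterByExpr by group, 14274 genes tested, Benjamini-Hochberg adjustment over all of them at 0.05). SE is the log2 fold change divided by the square root of F. Exonic lengths and NMD transcripts came from GENCODE M21 (14437 genes matched by symbol, 420 by accession, 52 not matched). Count-density offsets were lowess fits (span 0.3) of each library against the mean over 14228 genes, and joint offsets used mgcv 1.9.3. Alternatives included DESeq2 1.42.0, limma-voom (3.58.1), other scalings and filters, cyclic loess, the mouse number as a block and each library left out. Fits were also run on counts simulated with known fold changes. The simulation held no count-density trend and no outlying library, so it cannot show how the fits handle either. The channel genes named with full values are those that passed without offsets or with count-density offsets and, in a role with none, the most abundant; of the partners, up to 3 passing genes per list by smallest p. Some of these genes are not reported here by name, and counts of calls over the channel genes and lists include them. The members and lists were chosen with earlier results of these data known. Same-numbered KO and WT mice correlated at -0.376 to 0.141, so numbers were not taken as pairs. WT 6 and WT 7 were the closest libraries (chi-square per degree of freedom 1.02, where counting noise alone gives about 1). The next pair, KO 3 and KO 4, stood at 1.2, and the other WT pairs at 1.24 to 7.05. The labels number WT 6 and WT 7 as separate mice, and they were kept as 2. Whether they share RNA of 1 mouse was not tested, and the WT sample size, SDs and p-values take them as separate.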

Additional observations from a re-analysis of the deposited data

Results flagged for a closer look

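A library was marked where its gap to the nearest library of its group was large against the group's range, by Dixon's 95% criterion, in CPM. Of 90 groups examined, 11 (12.2%) were marked, where chance marks about 1 in 20, with 5 in KO 2 and 4 in WT 4. KO 2 stood above the other KO libraries in Cacng5 (54.3, others 20.5 to 26.6), Hcn4 (14.8, others 7.39 to 8.62), Cacna1s (6.53, others 1.85 to 2.81), Cacna1h (159, others 108 to 118) and Cacna2d2 (154, others 75.9 to 88.9). WT 4 stood above the other WT libraries in Cacng5 (48.3, others 15.3 to 25.7), Hcn4 (13.1, others 4.09 to 7.78) and Scn3b (183, others 138 to 157), and below them in Cacng3 (89.8, others 101 to 108). Among the partner genes, KO 1 stood above the other KO libraries in Cntn1 (376, others 334 to 345), and WT 2 below the other WT libraries in Cntn1 (356, others 373 to 384). The cause was not tested.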

How the results depend on the processing

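The count of channel genes called higher was 6, and it became 3 with offsets for density and length, 3 at an adjusted p under 0.01, 0 with the library total as a term, and 4 to 13 when 1 library was left out (13 without WT 4). The count called lower was also 6, and it became 1 with count-density offsets, 3 with offsets for density and length, 2 at an adjusted p under 0.01, 0 with the library total, 0 with density offsets and KO 2 and WT 4 left out (3 at an unadjusted p under 0.05 in edgeR), and 4 to 8 when 1 library was left out. With the mouse number as a replicate block 4 channel genes were higher and 2 lower, and 0 partner genes higher and 5 lower. DESeq2 called 5 and 7 channel genes, limma-voom 7 and 6. Partner genes called higher, 2 in all, became 1 with DESeq2 size factors, 1 without a filter, 0 with the library total, 4 with density offsets, 5 with cyclic loess, 6 without KO 2 and WT 4 with or without density offsets, 0 at an adjusted p under 0.01, and 0 to 4 when 1 library was left out (0 without KO 4, 4 without WT 4). Partner genes called lower, 8 in all, became 2 with density offsets, with or without KO 2 and WT 4, 4 with offsets for density and length, 0 with the library total, 5 at an adjusted p under 0.01, and 6 to 10 when 1 library was left out. Among the 20 genes named by the rule, the signs of Nalcn (-0.010) and Calm3 (0.004) reversed with the library total, and that of Cntn1 with density offsets (0.041, and 0.049 without KO 2 and WT 4). Over all 40 channel genes 13 changed sign with the library total, among them Hcn4 (0.47 to -0.082), Cacna2d2 (0.28 to -0.092), Cacnb3 (-0.16 to 0.11) and Scn3b (0.093 to -0.039), and 7 with density offsets, among them Cacnb1, Cacnb3 and Scn2a1. The causes were not tested. Density offsets without KO 2 and WT 4 were chosen after seeing the data. The median of the channel genes stayed positive, 0.042 to 0.138, under every setting, beside -0.004 to 0.043 over all tested genes. In the main fit it was 0.085, with an error of 0.080 taken from the spread between libraries. The settings reuse the same 12 libraries, so the constant sign is given as a description. Depth limits Cacna1s and Cacng6, with 4 to 42 counts per library.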
